A study of Homo sapiens with 22 samples.

Results

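The cystatin genes were followed through a series on 2 human melanoma cell lines, WM989 and WM983B, both BRAF-mutant and grown as clones made by repeated single-cell bottlenecks (WM989 A6-G3 and WM983B E9-D5). The 8 genes CST1, CST2, CST3, CST4, CST6, CST7, CSTA and CSTB were taken by symbol, and all 8 were among the 33538 genes of the untreated WM989 table and the 36601 genes of the untreated WM983B and treated WM989 tables. They were chosen with earlier results of these cells known, so their levels by state are given as a description with no test, and their treatment changes, from a fit over all genes, with nothing read from how many of them passed. There were 10 samples of single-cell RNA, from a 3′ kit of 10x Genomics, and 12 samples of open chromatin, from ATAC-seq. Untreated WM989 cells carried a lentiviral lineage barcode and were grown from a sort for EGFR and NGFR or from a mixed sort, and 1 sample of untreated WM983B cells served as a second line. Barcoded WM989 cells were also grown as Control, with recombinant TGFB1, with a TGF-β receptor inhibitor (TGFBRi, LY2109761) or with a PI3K inhibitor (PI3Ki, GDC-0941), 2 libraries each, and none of these groups received BRAF or MEK inhibitors. For ATAC-seq, WM989 cells were sorted as EGFR-High, NGFR-High, EGFR-NGFR-High or Mix, 3 libraries each, and the methods name a sort negative for both markers, without saying whether it is the one labelled Mix. The authors labelled each cell primed (the rare state from which drug resistance more often arises) or drug-susceptible from its own RNA.

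Cystatins are tight-binding inhibitors of papain-like cysteine proteases, chiefly the lysosomal cathepsins, and some of them also inhibit legumain. The secreted members are CST3 (cystatin C, made by nearly all cells), the closely related salivary cystatins CST1 (cystatin SN), CST2 (cystatin SA) and CST4 (cystatin S), and CST6 (cystatin E/M, known from skin). CST7 (cystatin F) is known from leukocytes and acts within endosomes and lysosomes, whereas CSTA and CSTB (the stefins, cystatins A and B) lack a signal peptide and stay in the cytosol and nucleus.

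Levels are given as CPM, the unique molecular identifiers (UMIs) of a gene scaled to the usual library total and summed over the cells of a group. A 3′ UMI count stands for a molecule and does not scale with gene length. The untreated WM989 table held 12531 cells from 8 capture wells (408 to 3841 cells each) with a median of 53571 UMIs per cell. WM983B held 1449 cells with a median of 66668 UMIs, and the treatment experiment held 40021 cells in 8 libraries with medians of 13013 to 21720.5 UMIs. Of the cell barcodes, 19 of 12512 occurred in more than 1 WM989 well and 194 of 39827 in more than 1 treatment library. Leukocyte, keratinocyte and endothelial markers were checked, since CST7 and CST6 are known from other cell types. The 6 leukocyte markers summed to 0.546 CPM when primed and 1.05 CPM when drug-susceptible in WM989, with none of them at 1 CPM or more, and to between 0.751 and 1.085 CPM in the treatment libraries. Primed WM989 cells had less of the 4 melanocyte markers (149 against 4437 CPM summed) and more of the 4 primed markers (316 against 29.3 CPM), as the state labels say. The keratinocyte markers summed to 202 against 129 CPM, from 1 of 5 genes at 1 CPM or more, and the endothelial markers to 25.3 against 0.498 CPM, and the part of either in the results was not tested. The cells of wells 1 to 4 are named r1 in the cell labels and those of wells 5 to 8 r2. These replicates stood apart for CST1, so its values are given for each. Per the methods, the cells of a sort were split over a pair of chip wells, so the 8 wells are not 8 cultures, and the labels do not say which wells share one. Primed cells made up 56.9 and 62.4% of wells 1 and 2, and 79.7 and 76.9% of wells 5 and 6. They made up 7.87 and 6.85% of wells 3 and 4, and 9.17 and 9.42% of wells 7 and 8.

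CST1, CST2 and CST4 are closely related in sequence, which limits how surely a short read is assigned to each. In the reference transcripts, 33.1% of all 43-base windows of CST1 and 36.6% of those of CST4 also occurred exactly in another cystatin transcript, against 11.2% for CST2. In the last 300 bases, where 3′ reads start, 29.5% of CST1 windows, 31.8% of CST4 windows and 6.98% of CST2 windows were shared. With 49-base windows, these shares were 23.02%, 23.02% and 2.38%. Per the methods, the transcript read was 49 bases for untreated WM989 and 43 bases for WM983B and the treatment experiment. In the last 300 bases, CST1 shared no window with CST2, but shared 26.0% of 43-base windows with CST4 and 3.49% with CST5. Only exact matches were counted. Nearly identical windows, and how reads from shared windows were counted or dropped, were not examined. The other 5 genes shared no window with any transcript. By exact windows alone, the counts are thus least sure for CST1 and CST4, and surer for CST2.

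In untreated WM989 cells, 3 cystatins were higher in primed cells and CST1 was higher in drug-susceptible cells. CST3 and CSTB were the abundant members, never under 394 CPM in a well. CST7, CST2, CST1 and CST4 were at most 75.8 CPM, and CST6 and CSTA were close to absent. The authors made the state labels from the same RNA, so no test is given, and in such sums fewer expressing cells and less RNA per cell cannot be told apart.

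The salivary cystatins CST1 and CST2 went opposite ways between the states. CST1 stood at 0.859 CPM (95% exact Poisson interval 0.733 to 1.0) over 2843 primed cells and at 14.1 CPM (13.8 to 14.4) over 9688 drug-susceptible cells, a ratio of 16.4 (29.9 among cells called G1). Poisson and binomial intervals here cover counting error only. In drug-susceptible cells of wells 1 to 4, CST1 read 19.2, 17.6, 23.7 and 21.5 CPM, and in wells 5 to 8 it read 2.62, 1.07, 2.19 and 1.89 CPM. Primed cells of the same 8 wells read 1.19, 0.928, 0.148, 1.90, 0.506, 1.04, 0.223 and 0 CPM, where the count of 0 in well 8 allows up to 0.416 CPM. CST1 was lower in primed cells of all 8 wells, by the least in well 6, but its high level in drug-susceptible cells belonged to r1. Summed by replicate, the drug-susceptible to primed ratio was 21.2 in r1 (21.6 against 1.02 CPM) and 2.91 in r2 (2.02 against 0.692 CPM).

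CST2 had the reverse pattern at a lower level. Primed cells had 6.61 CPM (6.26 to 6.99) and drug-susceptible cells 0.313 CPM (0.269 to 0.363), which is 21.1 times less (12.1 times among G1 cells). Primed cells of the 8 wells ranged from 2.45 to 9.61 CPM and drug-susceptible cells from 0.140 to 0.601 CPM, so the states did not overlap, and the ratio within a well ran from 9.62 to 26.4. CST4 was low in both states, with 0.963 CPM for the primed cells and 1.63 CPM for the others. It was lower in the primed cells of 6 wells and higher in those of 2 wells, with well values of 0 to 1.59 CPM in primed and 1.0 to 2.51 CPM in drug-susceptible cells.

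CST3, the broadly expressed secreted inhibitor, reached 1691 CPM (1685 to 1697) in primed cells, 3.32 times the 509 CPM (507 to 510) of drug-susceptible cells. Primed cells of wells 1 to 8 read 2376, 2418, 1502, 1435, 1102, 1137, 989 and 1034 CPM. Drug-susceptible cells read 566, 641, 567, 563, 444, 439, 397 and 394 CPM. All primed values lay above all drug-susceptible values, and in both states the r1 wells were above the r2 wells.

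CST7, known as a leukocyte cystatin, had the largest ratio between states among the 8 genes when all cells were summed. It had 51.6 CPM (50.6 to 52.6) when primed, 32.2 times the 1.60 CPM (1.497 to 1.71) of the drug-susceptible state. Among G1 cells this ratio was 19.3, smaller than that of CST1, which went the other way. Primed cells of wells 1 to 8 read 75.8, 70.9, 52.0, 57.4, 30.0, 28.9, 50.4 and 51.2 CPM, and drug-susceptible cells from 0.735 to 2.07 CPM. The lowest primed well was thus far above the highest drug-susceptible well, with leukocyte markers near 0 in both.

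Among the intracellular stefins, CSTB was the only abundant one. Its level was 1409 CPM in the primed state and 1.30 times higher, 1828 CPM, in the drug-susceptible state, and it was lower in primed cells of 6 of 8 wells (within-well primed to drug-susceptible ratios from 0.637 to 1.03). CSTA had 25 UMIs among primed cells and 50 among the rest (0.130 and 0.0895 CPM), and CST6 had 5 and 2 UMIs. Over the 8 wells, which are not separate cultures, the mean log2 ratio of primed to drug-susceptible CPM (0.1 CPM added) was -3.42 ± 1.89 (SD) for CST1, 3.58 ± 0.44 for CST2, -1.45 ± 1.66 for CST4, 1.52 ± 0.30 for CST3, 4.998 ± 0.561 for CST7 and -0.31 ± 0.30 for CSTB. The SD exceeded the mean only for CST4, and nearly equalled it for CSTB. CST2, CST3 and CST7 were the 3 members whose primed wells all lay above all drug-susceptible wells, as did 13.9% of 13194 genes with at least 1 CPM in a state, and none of the 8 had all primed wells below, as did 12.5%.

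**Figure D1:**
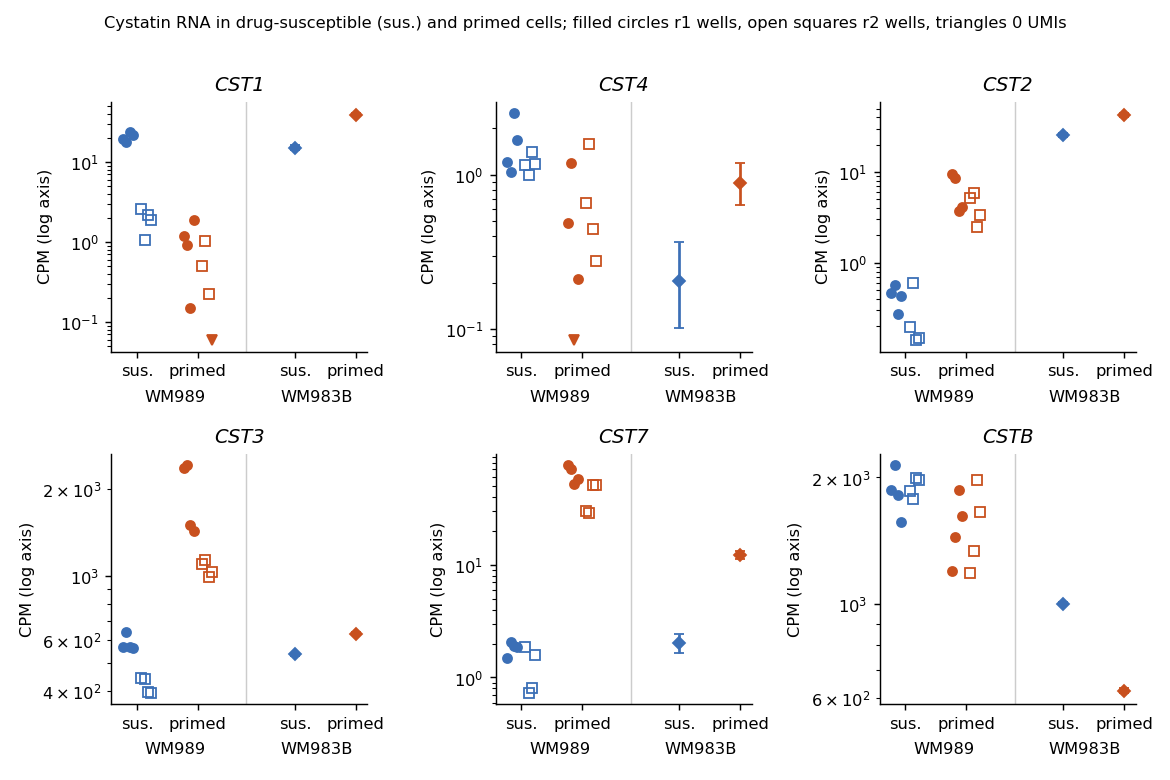
CPM (log axis) of CST1, CST2, CST4, CST3, CST7 and CSTB in primed and drug-susceptible cells. Filled circles are wells of r1 and open squares wells of r2 of WM989, triangles mark wells with 0 UMIs, and diamonds are the WM983B sample with 95% Poisson intervals. CST2, CST3 and CST7 separate the states in WM989, while CST1 in drug-susceptible cells falls into an r1 group from 17.6 to 23.7 CPM and an r2 group from 1.07 to 2.62 CPM.

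Detection per cell followed the levels. Each cell was thinned to 10000 UMIs in WM989 to set the states at equal depth, since primed cells had a median of 58253 UMIs and drug-susceptible cells 52835. CST7 was detected in 53.8% of primed cells (27.4% after thinning) and 4.88% of drug-susceptible cells (1.32%). For CST2 the shares were 27.4% (6.44%) when primed and 1.64% (0.306%) when drug-susceptible. CST1 showed the reverse, with 3.52% (0.902%) of primed and 35.8% (12.5%) of drug-susceptible cells in r1, and 2.19% (0.395%) and 8.65% (1.92%) in r2. CST4 was in 2.05% (0.584%) and 7.34% (1.66%) in r1 and in 2.37% (0.576%) and 5.89% (1.25%) in r2, so fewer primed cells had it in both. The top 1% of primed cells held 81.6% of its 185 UMIs over both replicates, against 33.6% in the drug-susceptible state. All cells were melanoma cells, so no cell type that lacks these genes was there to set a background of free RNA. Detection in the state with less of a gene bounds that gene's own background, pooled over wells, whose shares of primed cells differed. This was 1.64% of drug-susceptible cells for CST2, 4.88% of them for CST7 and 2.99% of all primed cells for CST1. CST3 and CSTB were detected in nearly all cells of both states, so no useful bound follows for them.

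Across the authors' 11 WM989 clusters, of which 2, 8 and 9 are primed, the primed clusters differed among themselves. Cluster 2 had the most CST2 (8.10 CPM, against 3.22 in cluster 8 and 5.34 in cluster 9), CST3 (1992, against 1289 and 1248 CPM) and CST7 (60.7, against 53.9 and 28.8 CPM). For CST2 and CST3 cluster 2 was highest in both replicates, but for CST7 only in r1 (83.5 against 56.4 CPM in cluster 8), while in r2 cluster 8 was higher (50.2 against 35.3 CPM). Cluster 2 held 63.1% of all CST2 UMIs with 12.7% of the cells. Among drug-susceptible clusters, CST1 ranged from 10.97 CPM (cluster 1) to 22.4 CPM (cluster 5) and 38.03 CPM (cluster 10). Cluster 10, with 466 cells, held 11.4% of CST1 UMIs, had CST1 in 41.0% of its cells (18.5% after thinning), and also had the most CST7 of the drug-susceptible clusters (9.38 CPM, against at most 1.83 CPM in the others). CST1 in cluster 10 was 47.7 CPM in r1 and 4.11 CPM in r2, the highest of the clusters in each. Cluster 5 stood at 40.0 CPM in r1 but at 2.08 CPM in r2, under clusters 0 (2.13 CPM) and 7 (2.38 CPM), so its place rests on r1. CSTB stayed between 1272 CPM (cluster 9) and 1976 CPM (cluster 5). The states differed in cell cycle phase as the authors called it, with 2095 of 2843 primed and 2473 of 9688 drug-susceptible cells in G1, so phases were read within a state. Primed cells had 7.06 CPM of CST2 in G1, 6.88 in S and 4.64 in G2M, 59.9, 33.9 and 29.2 CPM of CST7, and 1865, 1307 and 1236 CPM of CST3. Drug-susceptible cells had 22.5 CPM of CST1 in G1, 11.5 in S and 11.8 in G2M.

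**Figure D2:**
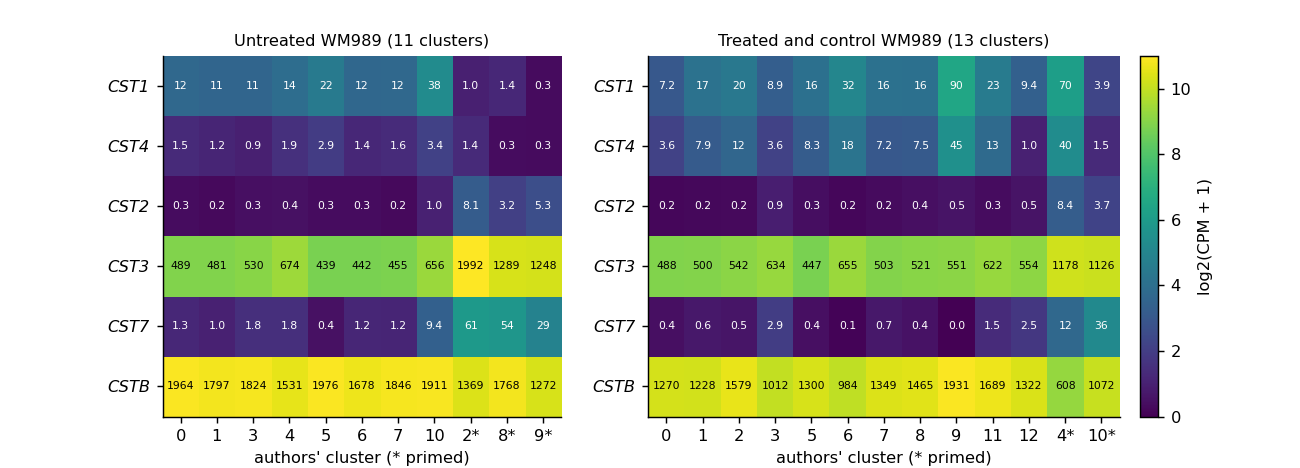
Heat maps of log2(CPM + 1), with the CPM printed, for the cystatins in the 11 clusters of untreated WM989 cells and the 13 clusters of treated WM989 cells. Asterisks mark clusters that the authors' labels call primed. CST2, CST3 and CST7 follow the primed clusters in both, and CST1 and CST4 are high in cluster 4 and cluster 9 of the treated cells, at 70.5 and 89.5 CPM of CST1.

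Genes most alike in pattern were found as the 3 highest Pearson r of log2(CPM + 1) across clusters, among 10839 genes in the 11 WM989 clusters and 10944 genes in the 13 treated clusters. Clusters share libraries, and many genes follow the primed clusters, so r is given as a description. In untreated WM989, CST2 was most like SNAP25 (0.997), KCNN3 and CCBE1 (both 0.996), CST3 most like TBC1D17 (0.994), TRPS1 (0.993) and ARSG (0.992), and CST7 most like BIRC3 (0.989), CFAP36 (0.988) and IL24 (0.987). CST1 was most like BHLHE41 (0.987), RUFY3 and ASAH1 (both 0.980), and CSTB most like TUB (0.942), NDUFAF2 (0.934) and KCNN2 (0.926). Within the family, r was 0.975 for CST2 with CST3, 0.953 for CST2 with CST7 and 0.960 for CST3 with CST7, and -0.855 for CST1 with CST2.

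In WM983B, CST1 and CST2 were both higher in primed cells. CST1 was 39.0 CPM (95% Poisson interval 37.3 to 40.8) in 731 primed cells and 15.2 CPM (14.2 to 16.3) in 718 drug-susceptible cells, 2.57 times less, opposite in direction to WM989. CST2 was 42.6 CPM (40.7 to 44.4) against 25.3 CPM (24.0 to 26.7), which is 1.68 times higher. CST4 was 0.881 CPM (0.637 to 1.19) against 0.204 CPM (0.102 to 0.365), from 43 and 11 UMIs, with 65.1% of the 43 in the top 1% of primed cells. Among cells called G1 these contrasts were wider, with ratios of 7.35 for CST1, 2.77 for CST2 and 11.8 for CST4. The G1 ratio of CST4 rests on 14 UMIs in primed cells and 1 in drug-susceptible cells (interval 0.00188 to 0.413 CPM). WM983B was 1 library without a replicate, so these intervals hold no variation between cultures. Per 100 CST1 UMIs, there were 1.98 CST4 UMIs in WM983B, the lowest proportion of the 3 data sets.

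CST7, CST3 and CSTB kept their WM989 direction in WM983B, CST7 and CST3 with smaller ratios and CSTB with a larger one. CST7 had 12.1 CPM (11.2 to 13.2) when primed and 2.003 CPM (1.64 to 2.42) when not, 6.06 times less. That ratio was 13.6 among G1 cells and 14.1 with drug-susceptible cluster 3 left out. CST3 was 631 against 536 CPM, a ratio of 1.18, and CSTB was 625 against 1003 CPM, 1.61 times lower. Leukocyte markers summed to 21.9 CPM in the primed state and 12.1 CPM in the other state of WM983B, from 1 of 6 genes at 1 CPM or more, and their part in the CST7 difference was not tested. CST6 had 7 UMIs in primed cells and 0 in drug-susceptible cells, and CSTA had 6 and 1 UMIs.

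CST1 in WM983B sat in few primed cells. The top 1% of primed cells by CST1 held 45.9% of its UMIs, against 11.98% in drug-susceptible cells, and a single cell reached 258 UMIs. With cells thinned to 30000 UMIs, CST1 was detected in 22.3% of the primed and 26.0% of the other cells (31.5% and 40.9% unthinned, medians 63758 and 72187.5 UMIs), so more CST1 in primed cells came with fewer cells that had it. CST2 did not show this, with 48.96% and 39.9% after thinning (66.3% and 59.3% unthinned). The 4 clusters spread CST1 widely, with 33.3 CPM in cluster 0 and 76.9 CPM in cluster 2 (both primed), and 13.5 CPM in cluster 1 and 25.5 CPM in cluster 3. Cluster 2, with 91 cells, was also highest in CST2 (60.0 CPM) and CST3 (866 CPM) but not in CST7 (5.27 CPM, against 13.2 CPM in cluster 0).

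In the treatment experiment, TGFB1 and PI3Ki each came with more CST1 and CST4, whereas CST2 was higher only with TGFB1, and CST7 was higher with TGFB1 and lower with PI3Ki. Over all cells of a library, CST1 read 5.34 and 10.4 CPM in Control, 28.1 and 27.7 with TGFB1, 2.63 and 6.35 with TGFBRi, and 32.3 and 49.4 with PI3Ki (r1 then r2 in each). CST4 read 2.39 and 5.02 CPM in Control, 13.6 and 15.9 with TGFB1, 0.824 and 3.52 with TGFBRi, and 14.8 and 26.9 with PI3Ki. The TGFB1 and PI3Ki libraries lay above both Control libraries for both genes, and TGFBRi overlapped Control, although within r1 and within r2 it was the lower. All 3 treatments were set against the same 2 Control libraries. The cell labels name the libraries r1 and r2 while the sample labels name them Mix and Primed, and which is which was not settled. Per the methods, the cells of a single well were split over the treatments, and this was done for a pair of samples in parallel as replicates.

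CST2 read 0.179 and 0.349 CPM in Control, 2.81 and 2.39 with TGFB1, 0.158 and 0.320 with TGFBRi, and 0.228 and 0.343 with PI3Ki. CST7 read 1.37 and 1.79 CPM in Control, 4.62 and 3.83 with TGFB1, 1.04 and 2.36 with TGFBRi, and 0.271 and 0.523 with PI3Ki. Of this pair, CST7 was below both Control libraries with PI3Ki, while CST2 there stayed inside the Control range.

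CST3 read 479 and 461 CPM in Control, 731 and 710 with TGFB1, 472 and 578 with TGFBRi, and 576 and 586 with PI3Ki. CSTB read 1332 and 1581 CPM in Control, 957 and 1118 with TGFB1, 1249 and 1395 with TGFBRi, and 1127 and 1331 with PI3Ki. CST3 was above both Control libraries with TGFB1 and with PI3Ki. CSTB was below both with TGFB1, while PI3Ki r2 and Control r1 were level. CST6 (at most 0.0250 CPM) and CSTA (0.0375 to 0.133 CPM) did not pass the filter on low counts.

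On the log2 scale of a quasi-likelihood fit in edgeR, with a term for r1 and r2, the change from Control with TGFB1 was 1.89 ± 0.16 (SE) for CST1, 2.05 ± 0.19 for CST4, 3.28 ± 0.25 for CST2, 0.60 ± 0.08 for CST3, 1.42 ± 0.21 for CST7 and -0.50 ± 0.07 for CSTB. With PI3Ki it was 2.501 ± 0.162 for CST1, 2.603 ± 0.191 for CST4, 0.27 ± 0.36 for CST2, 0.41 ± 0.08 for CST3, -1.82 ± 0.30 for CST7 and -0.14 ± 0.07 for CSTB. With TGFBRi it was -0.79 ± 0.19 for CST1, -0.77 ± 0.24 for CST4, -0.12 ± 0.39 for CST2, 0.17 ± 0.08 for CST3, 0.11 ± 0.23 for CST7 and -0.12 ± 0.07 for CSTB. Of the 6 members fitted, 6 were past an adjusted p of 0.05 with TGFB1 (29.0% of 18389 genes were), 1 with TGFBRi (2.53%) and 4 with PI3Ki (12.7%). The members were chosen on these contrasts, so nothing is read from the counts or from their median log2 fold change. That median was 1.65, -0.12 and 0.34 with TGFB1, TGFBRi and PI3Ki, beside 0.01, 0.00 and 0.00 over all genes. Leaving out 1 library leaves its group with 1 sample, which is then assumed to vary like the other groups, on fewer samples in all. In such fits the call was lost for CST1 with TGFBRi (-0.55 without Control r2, -0.48 without TGFBRi r1) and for CST3 with PI3Ki (0.32 without Control r2, 0.38 without PI3Ki r2), and CST2 with TGFB1 reached 3.90 without TGFB1 r2. The CST1 call with TGFBRi was also lost with DESeq2 and without the replicate term. CST4 with TGFBRi, not called, ran from -1.78 (without TGFBRi r2) to -0.33 (without TGFBRi r1).

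TGFB1 and PI3Ki also came with another share of primed cells, which was 2.26 and 4.47% in Control, 29.1 and 31.3% with TGFB1, 2.26 and 4.32% with TGFBRi, and 0.647 and 1.21% with PI3Ki. The share of cells in G1 was 34.0 and 32.7% in Control, 44.1 and 44.1% with TGFB1, 31.0 and 32.0% with TGFBRi, and 43.6 and 44.1% with PI3Ki. TGF-β target genes followed the labels in the fit, with log2 changes of 2.29 for SMAD7 under TGFB1 and -1.76 for SKIL under TGFBRi. None of the 5 genes listed for PI3K inhibition (IRS2, INSR, PIK3IP1, CCNG2 and SESN1) passed the test under PI3Ki. The cystatins were therefore also read within each state.

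**Figure D3:**
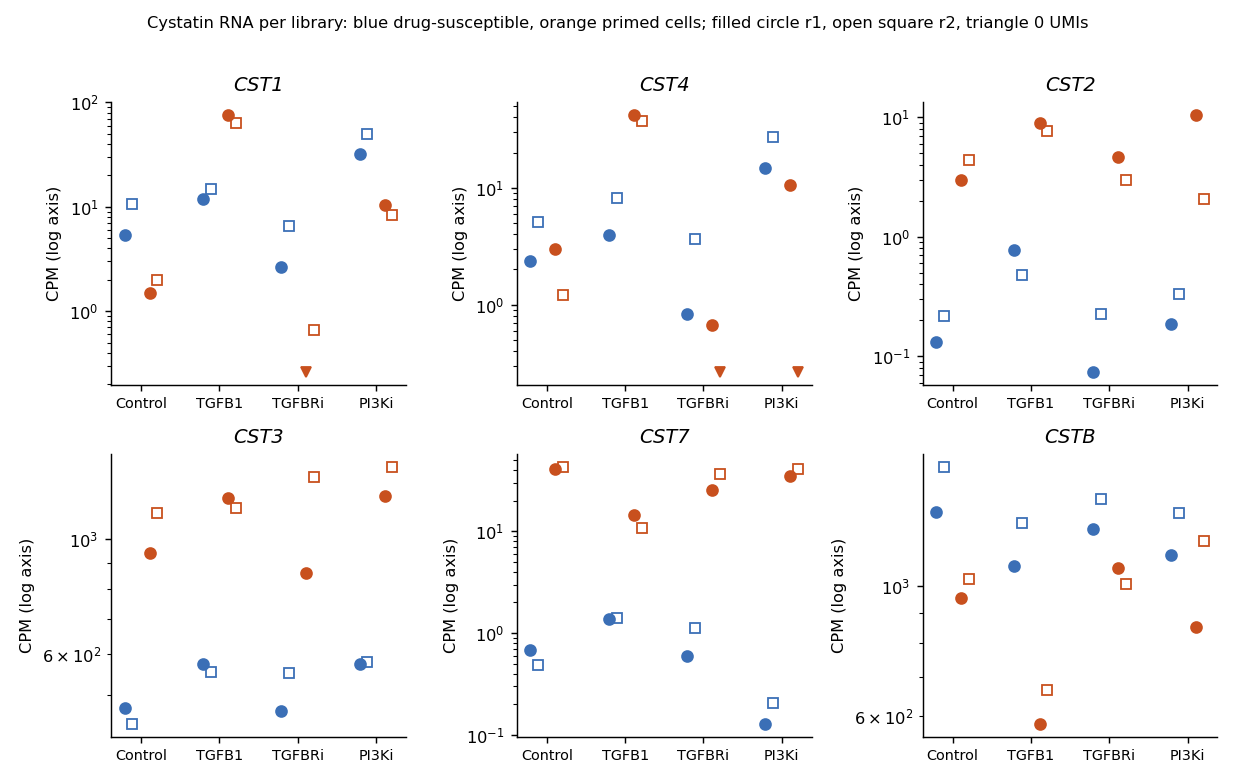
CPM of each cystatin in each of the 8 treatment libraries, summed within drug-susceptible cells (blue) and primed cells (orange), by treatment. With TGFB1, primed cells stand at 76.2 and 63.9 CPM of CST1 against at most 10.5 CPM in primed cells of the other libraries, while CST7 in primed cells is lowest there, at 14.3 and 10.6 CPM.

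Within drug-susceptible cells, PI3Ki and TGFB1 differed in size for CST1 and CST4. CST1 read 5.41 and 10.6 CPM in Control, 11.9 and 14.8 with TGFB1, 2.68 and 6.55 with TGFBRi, and 32.4 and 49.7 with PI3Ki. CST4 read 2.38 and 5.14 CPM, 3.96 and 8.20, 0.827 and 3.65, and 14.8 and 27.1 CPM in the same order. For CST4 the TGFB1 and Control libraries overlapped, although within r1 and within r2 TGFB1 was the higher.

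With TGFB1 the drug-susceptible cells compared were also from other clusters. Cluster 3 held 56.8 and 42.0% of them with TGFB1 and at most 1.67% in every other library.

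CST7 in drug-susceptible cells was 0.678 and 0.489 CPM in Control, 1.37 and 1.39 with TGFB1, 0.593 and 1.13 with TGFBRi, and 0.129 and 0.206 with PI3Ki. The TGFB1 values lay above and the PI3Ki values below both Control values. With cluster 3 left out, CST7 was 0.540 and 0.456 CPM in Control, 0.569 and 0.670 with TGFB1 and 0.129 and 0.207 with PI3Ki, so most of the TGFB1 difference lay in cluster 3 (2.17 and 2.71 CPM there). CST2 read 0.130 and 0.219 CPM in Control and 0.769 and 0.480 with TGFB1, also without overlap, and outside cluster 3 it read 0.119 and 0.222 against 0.569 and 0.248 CPM. CST1 outside cluster 3 was 5.43 and 10.7 CPM in Control and 14.6 and 18.2 with TGFB1. The fitted changes with TGFB1 were 0.77 ± 0.13 for CST1, 0.68 ± 0.15 for CST4, 1.82 ± 0.39 for CST2, 1.23 ± 0.24 for CST7, 0.29 ± 0.08 for CST3 and -0.33 ± 0.07 for CSTB. With PI3Ki they were 2.48 ± 0.12 for CST1, 2.61 ± 0.14 for CST4, 0.72 ± 0.43 for CST2, -1.64 ± 0.34 for CST7, 0.44 ± 0.08 for CST3 and -0.16 ± 0.07 for CSTB. With TGFBRi, CST1 changed by -0.79 ± 0.14, CST4 by -0.77 ± 0.17 and CST7 by 0.57 ± 0.25. In this fit 6, 2 and 4 of the 6 members were past the threshold with TGFB1, TGFBRi and PI3Ki, beside 14.9%, 2.81% and 12.1% of 17914 genes, again with nothing read from the counts. With DESeq2, which gave CST2 no adjusted p, these were 3 with TGFB1 and 0 with TGFBRi, and without the replicate term 2 and 0. Several of these calls were lost without 1 library, some with little move in the value. With TGFB1, the call was lost without TGFB1 r1 for CST2 (0.9993, against 2.73 without TGFB1 r2), CST4 (0.61), CST7 (1.03) and CST3 (0.21), and without Control r2 for CST7 (0.77), CST3 (0.20) and CSTB (-0.32). CSTB also lost it without Control r1 (-0.34) or TGFB1 r2 (-0.31). CST3 with PI3Ki lost it without Control r2 (0.34), and CST4 with TGFBRi reached -1.59 without TGFBRi r2.

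Within primed cells, TGFB1 came with far more CST1 and CST4 and with less CST7. The primed cells compared were from different clusters. With TGFB1, 1548 of 1577 and 1706 of 1757 primed cells were in the authors' cluster 4, whereas 89 of 94 and 159 of 165 in Control, 118 of 118 and 271 of 271 with TGFBRi and 22 of 25 and 68 of 70 with PI3Ki were in cluster 10. CST1 had 1534 and 1429 UMIs in the TGFB1 libraries (76.2 and 63.9 CPM), against 2 and 5 UMIs in Control (1.49 and 2.01 CPM), 0 and 2 with TGFBRi (0 and 0.661 CPM) and 3 and 8 with PI3Ki (10.5 and 8.30 CPM). CST4 read 42.2 and 37.3 CPM with TGFB1, 2.98 and 1.21 in Control, 0.667 and 0 with TGFBRi, and 10.5 and 0 with PI3Ki. Outside TGFB1 the primed cells of a library were few, from 25 to 271, and 3 counts there corresponded to 0.991 to 10.5 CPM. The Control, TGFBRi and PI3Ki levels of CST1 and CST4 in primed cells are thus near what a handful of UMIs gives, and the TGFB1 levels, from 1577 and 1757 primed cells, are not.

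CST7 in primed cells read 41.0 and 42.7 CPM in Control, 14.3 and 10.6 with TGFB1, 25.3 and 36.7 with TGFBRi, and 35.0 and 40.4 with PI3Ki. CST7 was thus lower with TGFB1 than in every other library in primed cells, while in drug-susceptible cells it was higher than in every other library. CST2 in primed cells was 2.98 and 4.43 CPM in Control and 8.90 and 7.74 CPM with TGFB1, and CST3 was 942 and 1124 against 1200 and 1148 CPM. CSTB in primed cells was 955 and 1028 CPM in Control and 581 and 665 CPM with TGFB1. The fitted changes with TGFB1 were 5.29 ± 0.30 for CST1, 4.47 ± 0.37 for CST4, 1.13 ± 0.39 for CST2, -1.68 ± 0.19 for CST7, 0.28 ± 0.14 for CST3 and -0.59 ± 0.13 for CSTB. For CST1 and CST4 the Control side is a handful of UMIs. Their SEs are smaller than the counting error of so few UMIs and are not to be read as precision. In primed cells 5, 0 and 0 of the 6 members were past the threshold with TGFB1, TGFBRi and PI3Ki, beside 13.3%, 0.375% and 1.78% of 10930 genes. The CST2 call was lost without any 1 of the Control or TGFB1 libraries (0.84 to 1.71), and the CSTB call without Control r1 (-0.52), TGFB1 r1 (-0.61) or TGFB1 r2 (-0.57). CST4 was 5.77 without TGFB1 r1 and 3.49 without TGFB1 r2.

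Among the authors' 13 clusters of treated cells, CST1 and CST4 were highest in a pair of clusters that were unlike in state. Cluster 4 (primed, 3270 cells, with 20 or more cells of a library under TGFB1 alone) had 70.5 CPM of CST1, 40.2 of CST4, 8.38 of CST2 and 12.2 of CST7. Cluster 9 (drug-susceptible, 1571 cells) had 89.5 CPM of CST1 and 45.1 of CST4 but only 0.473 of CST2, and no CST7 UMI. Cluster 10 (primed, 807 cells) had 3.88 CPM of CST1 and 36.3 of CST7. CST7 was thus at 0 where CST1 was highest, and CST1 was lowest where CST7 was highest.

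Cluster 9 held cells of every treatment, and its CST1 level went with PI3Ki. CST1 there read 38.04 and 49.8 CPM in Control, 31.0 and 29.5 with TGFB1, 37.1 in TGFBRi r2, and 190 and 148 with PI3Ki, from 66 to 557 cells per library. CST4 there was 11.5 and 24.3 CPM in Control and 70.5 and 79.0 with PI3Ki. In cluster 6, also drug-susceptible, CST1 was 8.28 and 13.6 CPM in Control and 36.2 and 33.8 with PI3Ki, so the higher level with PI3Ki was found in more than 1 cluster. In cluster 10, CST7 was 44.3 and 43.5 CPM in Control and 16.8 and 26.0 with TGFB1, from 29 and 51 cells, and lay below Control there too. CST1 in cluster 10 was 1.61 and 2.09 CPM in Control and 42.1 and 8.12 CPM with TGFB1. The Control values are a handful of UMIs and the TGFB1 values come from the same 29 and 51 cells, so little is read from them.

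Across the 13 clusters, the gene most like CST1 was CST4 (Pearson r 0.954), followed by SDC2 (0.820) and EIF3L (0.817), and for CST4 it was CST1, then FOXP4 (0.807) and EIF3L (0.764). Whether the shared windows changed this r was not tested. CST2 was most like HECW2 and AQP1 (both 0.989) and CYP27C1 (0.986), CST3 like ETHE1 (0.984), BMERB1 (0.973) and METTL27 (0.972), and CST7 like OLFML3 (0.985), CEMIP and OLFML2B (both 0.979). CSTB was most like CYSTM1 (0.973), WBP2 (0.962) and FDX1 (0.956). CST1 and CST2, opposed in untreated cells, had an r of 0.128 here, and CST1 with CST7 -0.308, while CST2 with CST3 kept 0.919.

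Per cell, CST1 had a different distribution under TGFB1 than under PI3Ki. With cells thinned to 5000 UMIs, CST1 was detected in 2.40 and 4.28% of Control cells, 7.73 and 8.07% with TGFB1, 1.13 and 2.51% with TGFBRi, and 11.7 and 16.5% with PI3Ki. Unthinned, the shares were 7.20 and 13.1%, 14.6 and 16.8%, 3.23 and 5.98%, and 27.2 and 38.2%. The top 1% of cells held 38.7 and 38.1% of CST1 UMIs with TGFB1 and 19.0 and 13.8% with PI3Ki, against 31.7 and 27.3% in Control. At such low detection, the top 1% share also depends on how many cells have the gene, so it is not a separate measure. With PI3Ki, CST1 was in more cells, and the top 1% held less of it. The TGFB1 libraries, with 28.1 and 27.7 CPM, had CST1 in fewer cells than the PI3Ki libraries. CST4 followed it, with 18.3 and 14.1% of its UMIs in the top 1% of cells with PI3Ki and 42.9 and 39.3% with TGFB1.

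**Figure D4:**
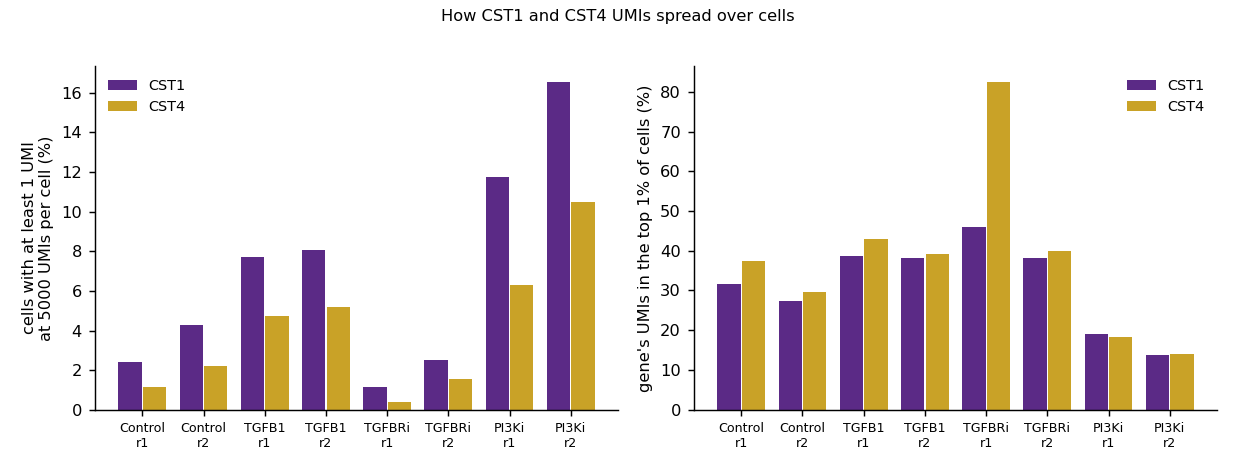
For CST1 and CST4 in each treatment library, bars give the percentage of cells with a UMI after thinning to 5000 UMIs per cell, and the percentage of UMIs held by the top 1% of cells. PI3Ki libraries have the most cells with CST1 (11.7 and 16.5%) and the smallest share in the top 1% (19.0 and 13.8%).

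Cells with CST4 often also had CST1. Within each treatment library, 31.3 to 71.2% of cells with CST4 also had a CST1 UMI, against 2.88 to 25.4% of cells without CST4. In untreated drug-susceptible cells the shares were 77.3% against 32.5% in r1 and 34.4% against 7.04% in r2, where cells with CST4 were somewhat deeper (medians 60444.5 against 52706 and 57823 against 52017 UMIs). In WM983B, 29 of the 30 cells with CST4 also had CST1 (96.7%, against 34.9% of cells without CST4). Per 100 CST1 UMIs there were 51.7 of CST4 in the treatment experiment and 13.6 in untreated WM989. Read length and gene table differed between these experiments, and their part in the proportions was not tested. Within untreated drug-susceptible cells the proportion was 8.55 in r1 and 63.6 in r2, so CST4 was not in a fixed proportion to CST1. In primed cells with TGFB1, CST2 was found in 19.7 and 19.8% of cells with CST1 and in 5.65 and 5.35% of cells without it, at similar median depths (11521 against 10837.5 UMIs in r1, and 11744.5 against 11004 in r2). CST7 was found in 19.7 and 10.2% of cells with CST1 and 12.03 and 9.48% without, which differed in r1 but hardly in r2.

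Other cystatin superfamily genes were nearly silent. Of CST5, CST8, CST9, CST9L, CST11, CSTL1, KNG1, AHSG, FETUB and HRG, the highest level over all cells of a data set was 0.633 CPM, for CST5 in WM983B, and none passed the filter on low counts in the treatment fits.

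The enzymes that cystatins inhibit were tested under treatment. Their levels did not choose the members, but the list was set with earlier results of these data known. Of 12 papain-like cathepsins and legumain, 11 passed the filter on low counts, and 7 changed with TGFB1 (edgeR, Benjamini-Hochberg adjusted over all genes), 4 up and 3 down, beside the 29.0% of all genes called. The 4 of highest CPM were CTSH, CTSC, CTSK and CTSB. CTSB, a lysosomal endopeptidase and carboxypeptidase, read 112 and 110 CPM in Control and 238 and 216 CPM with TGFB1, a log2 change of 1.02 ± 0.07 (adjusted p = 1.19e-10). CTSZ, a carboxypeptidase, read 44.9 and 51.8 CPM in Control and 88.6 and 85.5 with TGFB1 (0.84 ± 0.09), and CTSO rose by 0.69 ± 0.12. CTSK, the collagen-degrading cathepsin, fell from 146 and 144 CPM to 91.0 and 88.1 CPM (-0.71 ± 0.06, adjusted p = 1.03e-08), and CTSC, which activates granule serine proteases, from 172 and 187 to 129 and 138 CPM (-0.45 ± 0.07). CTSF rose by 0.29 and CTSH fell by 0.25. The list's median log2 change was 0.17 beside 0.01 over all genes.

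Fewer of these enzymes were called with PI3Ki and with TGFBRi. With PI3Ki, CTSF rose by 0.39 ± 0.07, and CTSV (-0.50 ± 0.08), CTSZ (-0.40 ± 0.09) and CTSL (-0.21 ± 0.07) fell, 4 of 11 beside 12.7% of all genes, with a median of -0.08. Without the term for r1 and r2, 1 of them, CTSV, stayed past the threshold. Over all cells CTSL lost the call without any 1 of the Control or PI3Ki libraries (-0.26 to -0.15), CTSF without PI3Ki r2 (0.28) and CTSZ without PI3Ki r1 (-0.25). CTSB, at 91.2 and 93.8 CPM there, was not called. With TGFBRi none of the 11 was called by edgeR, where 1 of them, CTSV, had an unadjusted p of 0.00694, or by DESeq2.

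The enzymes were also tested within each state. In drug-susceptible cells 6 changed with TGFB1, with CTSB (1.05), CTSZ (0.65), CTSL and CTSF (both 0.29) higher and CTSK (-0.48) and CTSC (-0.25) lower. With PI3Ki, 3 changed. Of all 17914 genes in this fit, 14.9% were called with TGFB1 and 12.1% with PI3Ki. With TGFB1, CTSF lost the call without Control r1 (0.29), Control r2 (0.28) or TGFB1 r1 (0.14) and CTSL without Control r1 (0.22) or TGFB1 r1 (0.20). The call of CTSC was also lost without Control r1 or TGFB1 r1. With PI3Ki, CTSF lost it without PI3Ki r2 (0.28) and CTSZ without PI3Ki r1 (-0.26). In primed cells 4 of 10 changed with TGFB1 (13.3% of all genes did). CTSK fell from 171 and 167 CPM in Control to 45.8 and 46.7 CPM with TGFB1, a log2 change of -1.79 ± 0.13 (edgeR, adjusted p = 2.01e-14), and stood at 179 and 167 with TGFBRi and 203 and 175 with PI3Ki. CTSL (-0.60 ± 0.16) and CTSH (-0.55 ± 0.13) also fell and CTSZ (0.75 ± 0.15) rose, while CTSB, called in all cells and in drug-susceptible cells, was not. Of these 4 calls, that of CTSK held without any 1 library. CTSH lost it without any 1 of the Control or TGFB1 libraries (-0.59 to -0.49), CTSL without Control r1 (-0.48) or TGFB1 r2 (-0.38), and CTSZ without TGFB1 r1 (0.48). Nearly all primed cells with TGFB1 were in cluster 4, with 43.8 and 42.6 CPM of CTSK, and the primed cells of other libraries in cluster 10. Inside cluster 10, CTSK read 180 and 167 CPM in Control and 157 and 188 with TGFB1 (29 and 51 cells), which overlapped. CTSL (58.0 and 65.3 against 78.6 and 78.0 CPM) and CTSH (104 and 98.8 against 138 and 166 CPM) were there above Control with TGFB1, and CTSZ (78.9 and 81.2 against 84.2 and 78.0 CPM) overlapped. The 4 changes in primed cells were thus not found inside cluster 10. Whether the change differed between the states was not tested. Of the cathepsins that are not cysteine proteases, CTSD (0.60) and CTSA (0.45) rose with TGFB1 over all cells, CTSD fell with TGFBRi (-0.55), CTSG was not called and CTSE was not fitted.

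Between the untreated states, which were not tested since the labels come from the same RNA, 6 of the 11 enzymes with at least 1 CPM in a state were higher in primed WM989 cells and 5 lower. This was near the share over 13194 genes, of which 54.9% were higher. The enzymes had a median log2 ratio of 0.29 beside 0.07 over all these genes. By replicate this median was 0.55 in r1 and -0.03 in r2. Those higher included CTSL (178 against 46.4 CPM) and CTSB (352 against 122 CPM), and those lower included CTSC (83.6 against 183 CPM) and CTSH (71.8 against 120 CPM). In both r1 and r2, 5 were higher and 5 lower, and 1 differed in direction. In WM983B, CTSB was even (315 against 310 CPM) and CTSK was lower in primed cells (65.0 against 104 CPM).

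Chromatin was read at the annotated starts of the members and in the regions around them. These values played no part in the choice of the members. Values are the fold enrichment that the authors' peak caller gave for the strongest peak within 500 bases of the start, with 1 where no peak was called, and each library had 213227 to 270924 peaks. CST7 (chr20:24949269-24959928, + strand, hg38) had a peak at its start in all 9 marker-high libraries and in 1 of 3 Mix libraries. The enrichment was 4.70, 6.15 and 4.89 in EGFR-High, 6.76, 4.81 and 6.58 in NGFR-High, 6.84, 7.56 and 6.95 in EGFR-NGFR-High, and 4.24 in Mix library 2. All marker-high values lay above the Mix values. The mean log2 difference was 1.90 (exact two-sided permutation p = 0.00909, the smallest that 220 splits allow, adjusted p = 0.258 over 21081 starts). This size rests on the value of 1 set for Mix libraries without a peak. With peaks up to 1000 bases from the start, 2 of 3 Mix libraries had one (4.24 and 3.87) and the difference was 1.29. With only peaks of a -log10 q of at least 10, 3 of 9 marker-high and 0 of 3 Mix libraries had one, the groups overlapped, and the difference was 0.94 (exact permutation p = 0.764).

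CSTB (chr21:43772511-43776330, - strand) also had all marker-high libraries above Mix. The enrichment was 18.4, 19.9 and 16.6 in EGFR-High, 23.5, 20.1 and 15.98 in NGFR-High, 25.9, 21.7 and 20.8 in EGFR-NGFR-High, and 14.3, 14.1 and 15.5 in Mix, a log2 difference of 0.46 with the same exact permutation p and adjusted p as CST7. Of the 4 members with a testable start, these 2 had all marker-high libraries above Mix, as did 2.11% of 21081 starts, and 1.42% had all below. No start in the genome passed the adjusted test (0.00% called), 2124 had an unadjusted exact p under 0.05, and no member's difference was past the threshold. The exact permutation test allows no p under 0.00909. A pass would have needed more starts at that p than had any p under 0.05. The adjusted test could thus call no start here, and nothing is read from its 0.

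CST3 (chr20:23626706-23638473, - strand) had strong peaks in all 12 libraries, 29.3 to 44.1 in marker-high and 25.9 to 38.5 in Mix libraries (log2 difference 0.18, exact permutation p = 0.318). CST2 (chr20:23823769-23826729, - strand) had weak peaks of 3.43 to 9.22 in 8 of 9 marker-high and of 4.93 and 4.24 in 2 of 3 Mix libraries (0.72, exact permutation p = 0.291). The starts of CST1, CST4, CST6 and CSTA had a peak in fewer than 3 libraries and were not tested. At the starts of CST3 and CST2, no difference was detectable with 9 against 3 libraries.

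**Figure D5:**
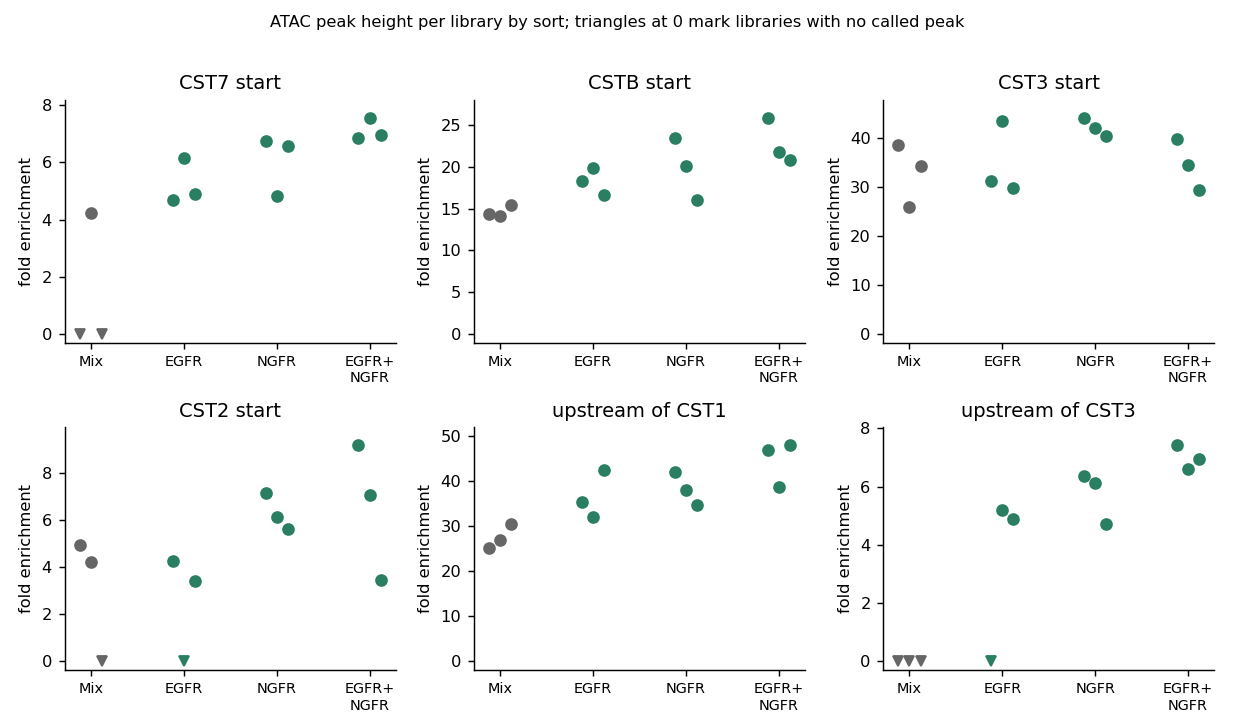
Fold enrichment of ATAC-seq peaks in each of the 12 libraries, by sort, at the starts of CST7, CSTB, CST3 and CST2 and in a region upstream of CST1 and of CST3. Triangles mark libraries without a peak. At the CST7 start 9 of 9 marker-high libraries and 1 of 3 Mix libraries have a peak.

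Around the member starts, 54 merged peak regions lay within 20000 bases. Of these, 3 had all marker-high libraries above Mix (3.77% of 151657 regions did), 1 had all below (4.51%) and 50 overlapped, with a median log2 difference of 0.08 beside 0.00 over all regions, so the members' surroundings were near the background. The regions that follow were picked after their values were seen. Region chr20:23754564-23755821, with its summit 3959 bases upstream of CST1, read 35.4, 32.1 and 42.6 in EGFR-High, 42.2, 38.1 and 34.8 in NGFR-High, 47.0, 38.8 and 48.1 in EGFR-NGFR-High and 25.1, 26.9 and 30.5 in Mix. Region chr20:23642079-23642807, 4185 bases upstream of CST3, had a peak in 8 of 9 marker-high and 0 of 3 Mix libraries. Region chr20:23697395-23697919, 8707 bases upstream of CST4, had a peak in 3 of 3 EGFR-High (7.68, 7.56 and 6.85) and 2 of 3 EGFR-NGFR-High libraries (3.57 and 5.67) and in none of the NGFR-High or Mix libraries. Near CST6, region chr11:65997305-65997646 went the other way, with 3.97 to 10.4 in marker-high and 11.2, 11.8 and 15.0 in Mix libraries.

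The 201 bases around the summits of 4 regions near members are shown, to give the letters behind the values. The CST1 and CST7 windows come from regions where all marker-high libraries lay above Mix, and the CST3 and CST4 windows from regions with no Mix peak, where some marker-high libraries also had none and so overlapped Mix. The hg38 plus strand is written, and capitals mark exact matches, on either strand, to motifs of AP-1 (TGANTCA), SMAD (CAGAC), TEAD (GGAATG), SOX (ACAAAG) and the E-box of MITF (CATGTG).
CST1 upstream, chr20:23755127-23755327: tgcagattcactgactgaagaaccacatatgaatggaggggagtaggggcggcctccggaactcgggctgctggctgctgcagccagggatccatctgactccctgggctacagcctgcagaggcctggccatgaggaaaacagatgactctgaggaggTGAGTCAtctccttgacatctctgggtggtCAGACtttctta
CST3 upstream, chr20:23642558-23642758: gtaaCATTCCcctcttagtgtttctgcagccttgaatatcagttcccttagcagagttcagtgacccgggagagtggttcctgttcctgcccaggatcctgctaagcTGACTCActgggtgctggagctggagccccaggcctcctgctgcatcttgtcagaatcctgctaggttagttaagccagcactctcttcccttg
CST4 upstream, chr20:23697645-23697845: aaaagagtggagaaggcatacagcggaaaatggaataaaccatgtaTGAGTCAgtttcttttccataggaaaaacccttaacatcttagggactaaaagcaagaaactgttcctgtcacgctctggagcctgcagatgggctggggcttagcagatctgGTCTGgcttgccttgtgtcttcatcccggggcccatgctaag
CST7 intron, chr20:24949810-24950010: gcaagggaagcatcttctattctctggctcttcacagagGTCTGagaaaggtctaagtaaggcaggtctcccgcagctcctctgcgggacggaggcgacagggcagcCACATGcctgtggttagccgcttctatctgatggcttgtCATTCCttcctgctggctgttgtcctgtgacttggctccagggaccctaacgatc

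The 3 upstream windows each held an AP-1 match, and the CST7 window held an E-box, a TEAD and a SMAD match but none for AP-1. These windows were picked by hand after the values were seen. The CSTB region with all marker-high libraries above Mix, and other regions with no Mix peak, are not shown. Nothing is thus read from how many of the shown windows held a match. An AP-1 match was found in 18.4% of all 201-base summit windows, in 40.4% of the 5723 windows whose marker-high libraries were all above Mix, and in 14 of the 54 windows near a member. The SMAD letters are short and were in 37.7% of all windows, and the TEAD and E-box letters were in 15.6% and 16.4%. A match describes the letters and not binding.

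Of the 8 members, only CST3 had an entry in the RefSeq promoter table used (GRCh38.p14). Its promoter is shown because it lay inside a strong peak of all 12 libraries, and it is written 5′ to 3′ on the gene's strand, with no match to the 5 motifs and so no capitals.
CST3 promoter, chr20:23637906-23638205: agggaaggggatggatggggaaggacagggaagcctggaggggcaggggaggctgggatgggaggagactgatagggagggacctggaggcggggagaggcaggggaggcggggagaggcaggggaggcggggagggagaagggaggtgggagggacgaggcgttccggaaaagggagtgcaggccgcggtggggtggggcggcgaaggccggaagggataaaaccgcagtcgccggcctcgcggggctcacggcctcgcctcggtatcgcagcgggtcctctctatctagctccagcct
This window had 69.7% G and C, against a median of 58.7% over 35116 promoters, and 21 CpG dinucleotides.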

How the data were processed

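Cells were sequenced with 10x Genomics 3′ kits. The authors aligned reads to hg38 in Cell Ranger and deposited UMI counts per gene and cell after filtering in Seurat, with cluster, state, phase and replicate labels. The deposited percentages of mitochondrial UMIs were not used further. For ATAC-seq the authors aligned with Bowtie2 2.3.4.1 and called peaks per library with MACS2 2.1.1.20160309. The deposited fold enrichment and -log10 q values were used as given. Members and gene lists were chosen with earlier results of these data known.

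Counts were summed per library (8 treatment libraries) and fitted in edgeR 4.0.16 (TMM, filterByExpr, quasi-likelihood, treatment plus replicate) over all genes, with Benjamini-Hochberg adjustment at 0.05. The replicate term followed the study's methods, and libraries with the same number deviated together (6 correlations of 0.256 to 0.365 over 18389 genes). The fits were tested on simulated data. States were compared by CPM with exact 95% Poisson intervals, and a count of 0 allowed 3 counts. ATAC starts with a peak in at least 3 libraries were compared by an exact permutation test of the 9 marker-high against the 3 Mix libraries. DESeq2 1.42.0, other filters and left-out libraries were alternatives. Doublets were not called again. Named were all members between the states, and all fitted members in the treatment comparisons over all cells. Within states all fitted members were named with TGFB1, and with PI3Ki in drug-susceptible cells. The other fitted changes within a state were given for some members or none. Also named were the enzymes past the threshold (at most 5 per comparison by size of change), the 4 enzymes of highest CPM, and the 3 genes most like each member. Other lists were given by counts and range. Where a sixth or seventh enzyme is named, it completes a count.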

Additional observations from a re-analysis of the deposited data

Results flagged for a closer look

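CST7 moved opposite ways in the 2 states under TGFB1. In primed cells the mean log2 ratio to Control was -1.76 (-1.52 in r1 and -2.002 in r2), and in drug-susceptible cells it was 1.26 (1.02 and 1.51). The difference between the states was not tested. In both states the cells with TGFB1 were largely in other clusters than those of Control (cluster 4 when primed, and cluster 3 for 56.8 and 42.0% of the drug-susceptible cells). Outside cluster 3, CST7 in drug-susceptible cells was 0.569 and 0.670 CPM with TGFB1 and 0.540 and 0.456 CPM in Control.

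Summed over all cells, CST1 and CST4 had opposite state contrasts in the 2 cell lines. The log2 ratio of primed to drug-susceptible CPM for CST1 was 1.36 in WM983B and -4.04 in WM989, and for CST4 it was 2.11 and -0.76. The size for CST1 in WM989 rests on r1, since r2 had 0.692 CPM when primed and 2.02 CPM when not. In WM983B fewer primed than drug-susceptible cells had a CST1 UMI (31.5 against 40.9%). The top 1% of those primed cells held 45.9% of its UMIs. Of the 30 WM983B cells with CST4, 29 also had CST1. Whether the CST4 contrast there is separate from that of CST1 was not tested. In WM989, CST4 was higher in primed cells of 2 of 8 wells, with a mean log2 ratio over wells of -1.45 ± 1.66 (SD). Fewer primed than drug-susceptible cells had a CST4 UMI in both replicates (2.05 against 7.34% in r1, 2.37 against 5.89% in r2), and the top 1% of primed cells held 81.6% of its UMIs. Each line is 1 sample, and these differences were not tested.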

How the results depend on the processing

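Over 119 results recomputed under the alternatives, 1076 of 1266 values counted as the same, 63 lost the threshold, 10 gained it, 89 moved and 28 changed sign. Fold changes and ATAC differences counted as the same if they kept their direction and side of the threshold. Counts did so within a set ratio. State ratios did so within the SD over wells in WM989 and within the Poisson interval in WM983B, which is a loose rule where the SD is large. The cause was not tested unless named. Members called with TGFBRi over all cells were 0 with DESeq2, 2 without the filter on low counts and 0 with no replicate block, and in drug-susceptible cells 0 with DESeq2 and 0 without the block. In drug-susceptible cells with TGFB1 they were 3 with DESeq2 and 2 without the block. Without the block, 1 enzyme was called with PI3Ki, over all cells and in drug-susceptible cells alike. All genes called without the block were 40 (TGFBRi) and 649 (PI3Ki) over all cells, 1189 (TGFB1), 47 (TGFBRi) and 570 (PI3Ki) in drug-susceptible cells, and 9 (TGFBRi) and 87 (PI3Ki) in primed cells. With DESeq2 they were 329 (TGFBRi, drug-susceptible), 693 (TGFB1, primed) and 13 (TGFBRi, primed), and for TGFBRi over all cells 748 without the filter and 148 in G1 cells.

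Uncalled changes that reversed were CST2 with PI3Ki (-0.40) and CST7 with TGFBRi (-0.25) in G1 cells, and CST2 (-0.0123) and CSTB (-0.0506) with PI3Ki in primed cells without the filter. In WM989 the log2 ratio was -1.54 for CST1 in r2 alone, 3.59 for CST2 and 4.27 for CST7 in G1 cells, and 1.38 for CST3 as the median over wells. In WM983B it was, in G1 cells and with cluster 3 left out, 2.88 and 1.53 for CST1, 1.47 and 0.89 for CST2, 3.56 and 4.35 for CST4, 0.43 and 0.27 for CST3, 3.76 and 3.82 for CST7, and -0.64 and -0.70 for CSTB. These CST4 ratios rest on 1 drug-susceptible UMI in G1 cells and 2 with cluster 3 left out. At a -log10 q of at least 10, only 1 member start had all marker-high libraries above Mix (CSTB), the CST7 difference was 0.94 (exact permutation p = 0.764) and CST2 had no value.

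Leaving out 1 library in turn, members called ranged over all cells from 0 (Control r2) to 2 (Control r1, TGFB1 r1, TGFB1 r2 or TGFBRi r2) with TGFBRi, from 6 to 6 with TGFB1 and from 3 to 4 with PI3Ki. In drug-susceptible cells they ranged from 2 (TGFB1 r1), with 3 without Control r2, to 6 with TGFB1, from 2 to 4 (TGFBRi r1) with TGFBRi, and from 3 to 4 with PI3Ki. In primed cells they ranged from 3 (Control r1, TGFB1 r1 or TGFB1 r2) to 5 with TGFB1. Enzymes called ranged over all cells from 6 to 9 with TGFB1, from 0 to 2 (TGFBRi r1) with TGFBRi and from 2 (PI3Ki r1 or r2) to 4 with PI3Ki. In drug-susceptible cells these were 3 (Control r1 or TGFB1 r1) to 6, 0 to 2 (TGFBRi r1) and 2 to 4, and in primed cells 2 (Control r1, TGFB1 r1 or r2) to 5, 0 to 1 (PI3Ki r1 or r2) and 0 to 0. All genes called ranged from 3164 to 6377, 168 to 1146 and 719 to 3298 over all cells, from 988 to 3722, 206 to 1247 and 632 to 3286 in drug-susceptible cells, and from 584 to 1726, 17 to 63 and 96 to 239 in primed cells. Uncalled members whose sign turned were, over all cells, CST2 with PI3Ki (-0.12 to 0.81), CST2 (-0.73 to 0.42) and CST7 (-0.57 to 0.58) with TGFBRi, in drug-susceptible cells CST2 (-1.18 to 0.35) and CST7 (-0.00523 to 1.04) with TGFBRi, and in primed cells CST2 (-0.86 to 1.18), CST4 (-6.61 to 2.24) and CSTB (-0.30 to 0.20) with PI3Ki and CST2 (-0.43 to 0.45), CST3 (-0.25 to 0.33) and CSTB (-0.0709 to 0.19) with TGFBRi.

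For ATAC-seq, leaving out 1 replicate number gave log2 differences of 1.55 to 2.59 for CST7, 0.37 to 0.59 for CSTB, 0.07 to 1.22 for CST2 and -0.0434 (without replicate 2) to 0.30 for CST3, with 2 to 2 starts without overlap. Libraries with the same ATAC replicate number deviated together weakly, with 18 correlations of -0.0116 to 0.115 (median 0.0384). Between different numbers, 36 correlations ran from -0.0892 to 0.0369 (median -0.0172). The main test took no account of these numbers. With a replicate block the exact permutation p for CST7 and CSTB was 0.0312, the smallest it allows, with an adjusted p of 0.45.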
